A study of Homo sapiens with 4 samples.

Results

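Leucine and serine tRNAs encoded in the human nucleus have a long variable arm. They were taken as every row of the deposited error tables whose tRNA name starts with Leu- or Ser-. This gave 9 of 48 tRNA references, 5 for leucine (Leu-AAG-2-3, Leu-CAA-4-1, Leu-CAG-1-4, Leu-TAA-1-1 and Leu-TAG-1-1) and 4 for serine (Ser-AGA-2-5, Ser-CGA-2-1, Ser-GCT-5-1 and Ser-TGA-1-1). The name gives the amino acid and then the anticodon in DNA letters. Together they hold 769 of 3721 tRNA nucleotides, 429 in leucine and 340 in serine references.

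The tRNA came from the human colorectal carcinoma cell line HCT116, either wild type (WT) or with TRMT1L knocked out (TRMT1L KO). TRMT1L is a homologue of TRMT1, the enzyme that dimethylates a guanosine at position 26 of many tRNAs, and the study's title assigns TRMT1L the same methylation at position 27 of tyrosine tRNA. Each genotype had 2 libraries, read as native RNA in a nanopore (Nano-tRNAseq). Whether a genotype's libraries were separate cultures, and whether the KO line was 1 clone or several, is not stated in the labels. The p-values therefore measure library-to-library spread alone, and this may be technical.

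In most tRNAs the variable loop between the anticodon and T arms is short. In leucine and serine tRNAs it is a longer arm that can fold on itself, and seryl-tRNA synthetase is known to recognise that arm rather than the anticodon. These tRNAs are also known for acetylcytidine at position 12, made by NAT10 with its partner THUMPD1, for dihydrouridines in the D loop around position 20, and for dimethylguanosine at 26. Serine tRNAs carry 3-methylcytidine at 32, and references whose anticodon starts with A carry inosine at 34. Leucine tRNAs usually hold a methylated guanosine at 37 and serine tRNAs a bulkier modified adenosine.

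A modified base can make the base caller read a wrong base (mismatch), skip one (deletion) or add one (insertion). The sum of the 3 rates is called the summed error here and is given as a percentage, with differences in percentage points. The pore senses several neighbouring nucleotides at a time, so an error rate neither names a modification nor places it on 1 base. The tables give no read depth, so no counting error can be stated, and they name no genome build. The spread between the 2 libraries of a genotype was small: over the 769 nucleotides the median SD was 1.51 points in WT and 1.06 points in KO. It was highest in Leu-TAA-1-1, with median SDs of 2.08 and 2.26 points. The mean summed error over the leucine and serine nucleotides was 32.7% in WT replicate 1 and 32.8% in WT replicate 2, and 32.9% and 33.4% in the respective KO replicates.

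The numbering sheet places the long arm between positions 44 and 46. It gives the arm 10 to 12 nucleotides in leucine references and 11 in each serine reference, 100 in all, which are counted here from the arm's 5′ end. No nucleotide of the other 39 references is numbered as arm, so the structural label holds for these 9 in the authors' numbering. Position 20a is held by all 9 members. Position 20b is held by Leu-CAA-4-1, Leu-CAG-1-4 and Leu-TAG-1-1 and by no other reference in the table.

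Across the WT molecules, high error stood in the same few places in most members: position 12, 26, the anticodon loop, parts of the variable arm, and 55, 57 and 58 in the T loop.

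**Figure D1:**
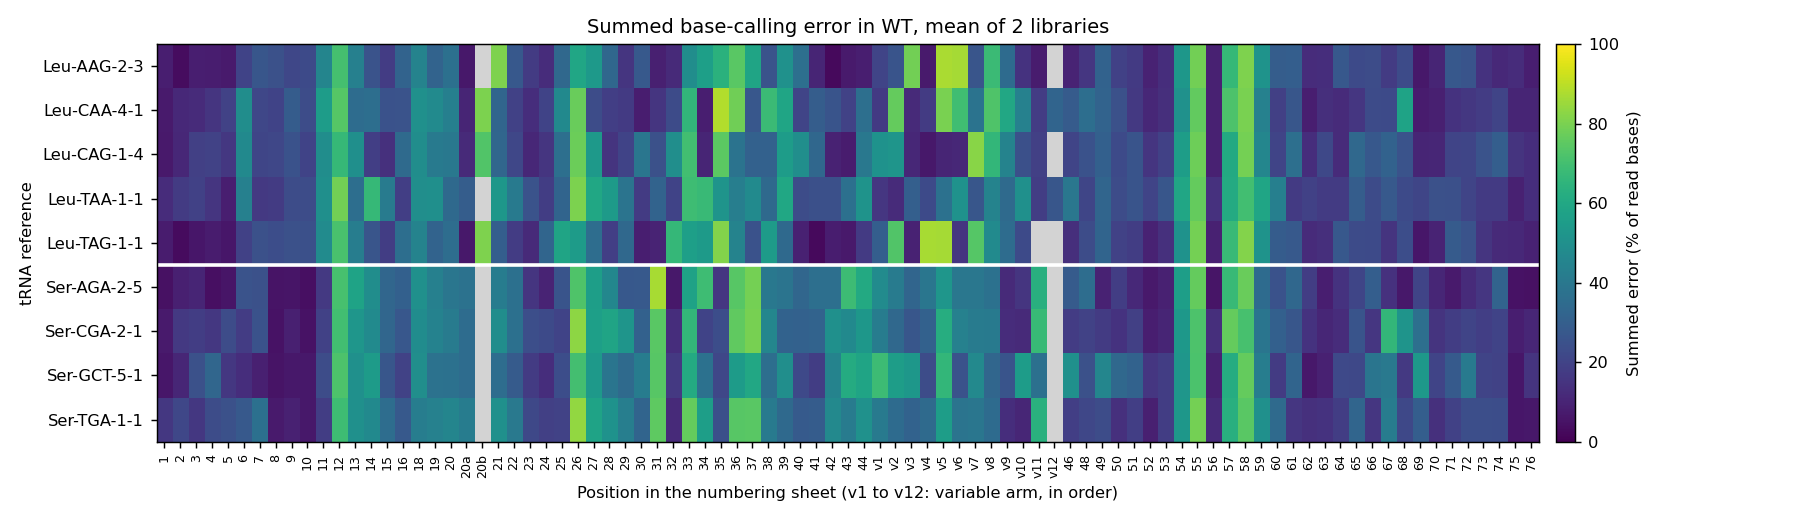
Summed error in WT (colour, % of read bases, mean of 2 libraries) by position (x axis, v1 to v12 are the variable arm nucleotides in order) for the 5 leucine references above the white line and the 4 serine references below it. Grey cells have no nucleotide. Position 12 is a bright column in the 9 references, 31 is bright in serine and 35 in leucine.

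At position 12, all 9 references were read with high error, and no other tRNA in the table reached their level. Leu-CAG-1-4 was lowest, with 68.8% and 65.4% in the 2 WT libraries, and Leu-TAA-1-1 was highest, with 78.6% and 78.5%. The other 7 lay between 69.1% and 73.6%. The 39 other references ran from 6.77% to 55.7%, with a median of 17.9%. The nearest of them were Asp-GTC-2-6 at 55.7%, Phe-GAA-2-1 at 51.05% and Gly-TCC-2-5 at 43.6%, so the 2 ranges do not touch. Position 12 was the sole one of 74 shared positions (1.35%) where the leucine and serine references lay entirely above or below the rest. Averaged over references it was 49.5 and 49.9 points higher than in the other tRNAs in the 2 WT libraries (limma adjusted p = 4.1e-17).

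**Figure D2:**
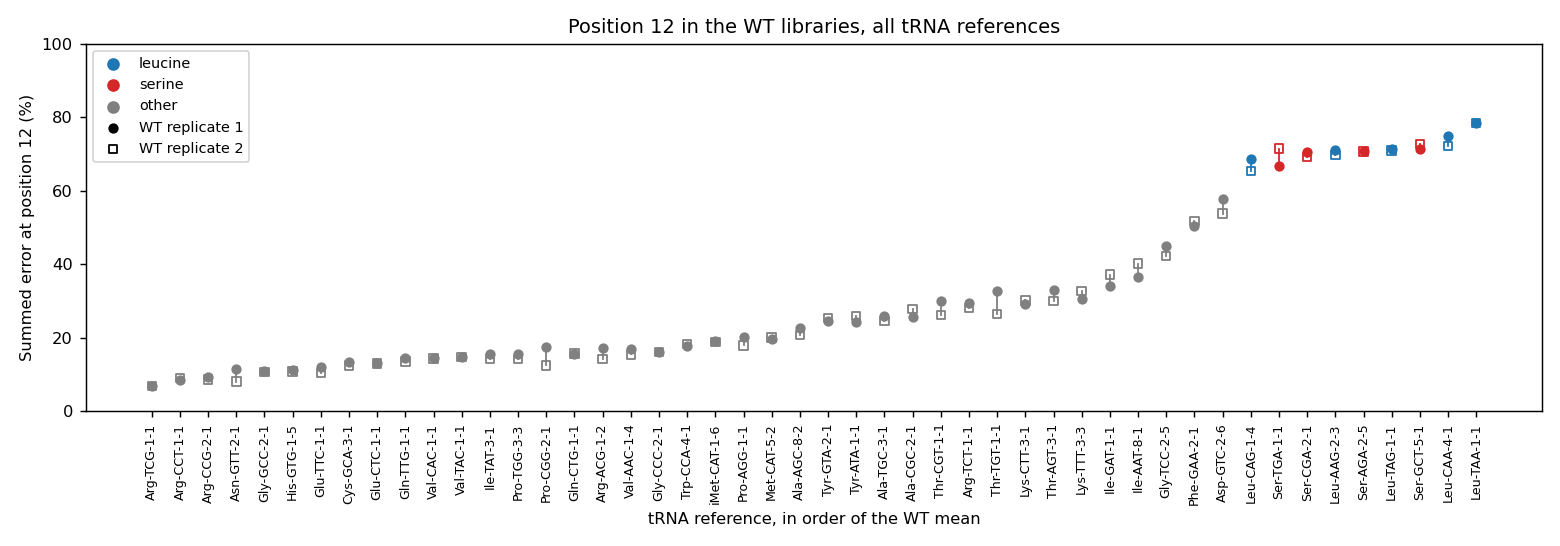
Summed error at position 12 (y axis, %) in each of the 48 tRNA references, in order of their WT mean, with filled circles for WT replicate 1 and open squares for WT replicate 2. The 5 leucine (blue) and 4 serine (red) references sit between 67.1% and 78.5% in the mean, above Asp-GTC-2-6 at 55.7%.

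The leucine and serine references reached this level with different kinds of error. The summed error at 12 averaged 72.1% in leucine and 70.4% in serine references, a difference short of the threshold (limma adjusted p = 0.185). Mismatch was 49.5% to 62.8% in leucine and 34.3% to 47.5% in serine references, a mean difference of 14.8 points (limma adjusted p = 4.7e-05). Deletion ran the other way, with 9.20% to 20.1% in leucine and 24.2% to 35.7% in serine references (limma adjusted p = 2.2e-07). In both kinds the 2 amino acids do not overlap: every leucine reference had more mismatch and less deletion than every serine reference. Insertion at 12 was at most 1.60% in any member.

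In the D loop the pattern differed by position. At 20 the members lay close together, from 34.2% in Leu-TAA-1-1 (32.7% and 35.8% in the libraries) to 45.4% in Ser-TGA-1-1 (43.8% and 46.9%), and leucine and serine did not pass the test of their difference (limma adjusted p = 0.249). Mismatch at 20 was nonetheless 20.3% to 23.3% in leucine and 26.04% to 30.4% in serine references, without overlap (limma adjusted p = 0.0022). At 20a the members were lower than the other 22 references that have this position, by 26.5 and 27.9 points in the 2 libraries, with overlapping ranges. Within the members 20a separated the amino acids. It was lowest in Leu-AAG-2-3, with 7.35% and 5.43%, and highest in Ser-TGA-1-1, with a mean of 41.8%. The leucine references reached 29.4% and the serine references began at 35.2%. At 20b the libraries read 77.6% and 83.2% in Leu-CAA-4-1, 70.1% and 75.7% in Leu-CAG-1-4, and 79.1% and 82.3% in Leu-TAG-1-1. These 3 values were thus high at 20b while the same references were between 6.42% and 11.8% at the neighbouring 20a.

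Position 26, the known site of TRMT1, was read with high error in all 9 members. It was lowest in Leu-TAG-1-1, with 55.01% and 54.87%, and highest in Ser-TGA-1-1, with 83.4% and 83.9%. The mean over members was 73.2%, which was 23.5 and 24.9 points higher than in the other references in the 2 libraries (limma adjusted p = 1.1e-14). The other references spread widely here, from 9.17% to 95.6%, and 5 of them lay above the highest member. Serine references averaged 77.4% and leucine references 69.8%, with overlapping ranges. In the sheet's numbering, which bears on Leu-AAG-2-3 as described below, the make-up of the error varied more than its sum. Leu-CAG-1-4 had 71.2% mismatch and 5.32% deletion at 26, whereas Leu-AAG-2-3 had 11.2% mismatch and 42.3% deletion.

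One feature of the numbering bears on Leu-AAG-2-3 and Leu-TAG-1-1 from position 21 to the arm. The sheet gives Leu-TAG-1-1 a 20b and Leu-AAG-2-3 none, so between nucleotides 21 and 45, counted from the 5′ end, the same nucleotide carries position numbers that differ by 1 in these references. Compared nucleotide by nucleotide, their WT error profiles differed by 3.27 points on average over these 25 nucleotides. Compared at equal position numbers they differed by 17.5 points, and over the 50 nucleotides numbered alike by 1.12 points. Nucleotide 21, for example, was at 80.9% in Leu-AAG-2-3, where it is numbered 21, and at 80.7% in Leu-TAG-1-1, where it is numbered 20b. Each of the 4 libraries showed the same order. The error rates do not settle which numbering applies to both. Values follow the sheet. At 26, Leu-AAG-2-3 would read 54.2% in place of 59.1% if numbered like Leu-TAG-1-1, with 42.98% mismatch and 9.72% deletion, so its contrast with Leu-CAG-1-4 in the kind of error depends on the numbering. Numbered like Leu-AAG-2-3, Leu-TAG-1-1 would read 58.4% at 26 in place of 54.9%. The changes at 32, 34 and 37 are given with those positions, and the order of the arm nucleotides shifts by 1. Tests of KO against WT at single nucleotides do not depend on it. The KO ranges given by position follow the sheet, as does the test of whether leucine and serine differ in their response. With Leu-AAG-2-3 numbered as Leu-TAG-1-1 is, that test gave 0 positions, as it did with the sheet's numbering.

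**Figure D3:**
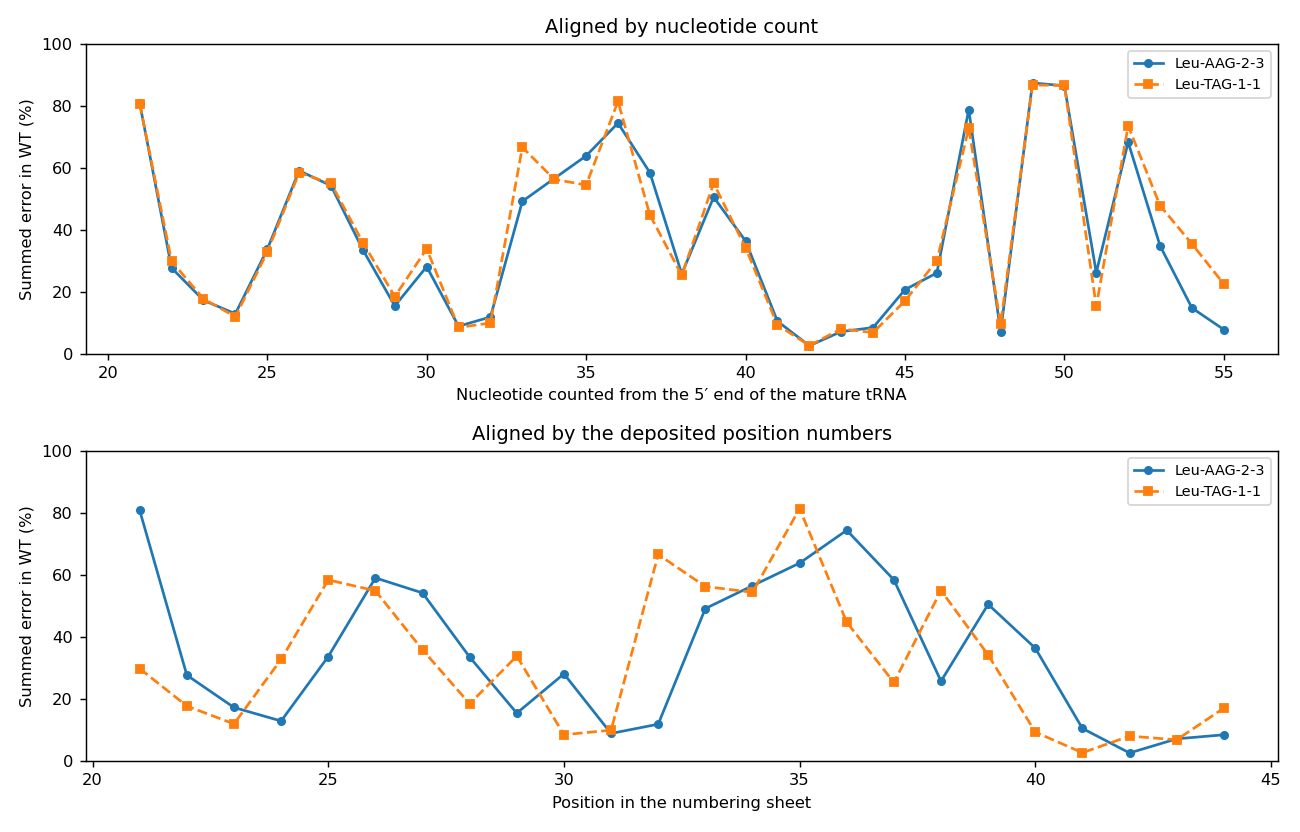
Summed error in WT (y axis, %, mean of 2 libraries) of Leu-AAG-2-3 (circles) and Leu-TAG-1-1 (squares), by nucleotide counted from the 5′ end (upper panel) and by the deposited position number (lower panel). By nucleotide count the profiles were 3.27 points apart on average over nucleotides 21 to 45, with wider gaps at some, such as nucleotide 33 (49.2% and 66.6%). That average leaves out the later arm nucleotides of the upper panel, where some gaps were also wide, such as nucleotide 54 (14.7% and 35.4%). At equal position numbers the profiles are offset by 1 and were 17.5 points apart.

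Over all shared positions the largest difference between the amino acids stood at 31, in the last pair of the anticodon stem and next to the known 3-methylcytidine of serine tRNAs at 32. All 4 serine references were high at 31, with Ser-GCT-5-1 lowest at 72.2% and 75.7% and Ser-AGA-2-5 highest at 84.7% and 89.3%. The leucine references ran from 8.82% in Leu-AAG-2-3 to 31.9% in Leu-TAA-1-1. The leucine mean was 57.2 and 61.7 points below the serine mean in the 2 libraries (limma adjusted p = 3.1e-41). Among the other 39 references, 5 exceeded 50% at 31: Thr-AGT-3-1 at 84.1%, Thr-CGT-1-1 at 75.8%, Thr-TGT-1-1 at 75.1%, Met-CAT-5-2 at 68.4% and Arg-TCT-1-1 at 67.3%. High error at 31 was therefore shared with the 3 threonine references and was not particular to serine.

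At 32 itself the serine references were low, from 6.43% in Ser-AGA-2-5 (6.90% and 5.97%) to 16.5% in Ser-GCT-5-1 (18.2% and 14.8%). The leucine references were spread from 11.8% in Leu-AAG-2-3 (12.1% and 11.5%) to 66.6% in Leu-TAG-1-1 (69.8% and 63.5%). The leucine mean was 22.2 points higher, with overlapping ranges. With Leu-AAG-2-3 numbered as Leu-TAG-1-1 is, the difference was 29.7 points and the ranges no longer overlapped; with Leu-TAG-1-1 numbered as Leu-AAG-2-3 is, it was 10.9 points with overlap.

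Position 34, the first base of the anticodon, followed the named anticodon more than the amino acid. Leu-CAA-4-1 was lowest, with 8.39% and 8.78%, followed by Leu-CAG-1-4 at 10.3% and Ser-CGA-2-1 at 20.2%, the 3 members whose anticodon starts with C. Ser-GCT-5-1, which starts with G, was at 37.5%. The references starting with T were at 67.8% in Leu-TAA-1-1, 55.9% in Ser-TGA-1-1 and 54.4% in Leu-TAG-1-1. The references starting with A, known to carry inosine, were at 56.6% in Leu-AAG-2-3 and highest of all in Ser-AGA-2-5, with 69.5% and 68.7%. The members with C at 34 thus lay below all the others, and those with A or T overlapped. Averaged by amino acid, the difference at 34 was 6.12 points, higher in serine and small beside the range within each. Taking the other's numbering, Leu-AAG-2-3 would be at 63.9% and Leu-TAG-1-1 at 56.3%, still above the members with C.

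Position 37, next to the anticodon, separated the amino acids. Leucine references ran from 25.3% in Leu-TAG-1-1 (23.4% and 27.2%) to 58.5% in Leu-AAG-2-3 (59.96% and 56.95%). Serine references ran from 59.8% in Ser-GCT-5-1 to 79.6% in Ser-CGA-2-1 (76.8% and 82.4%). The ranges of these 2-library means are next to each other without overlap, but the gap is narrow. WT replicate 1 of Leu-AAG-2-3, at 59.96%, was above the Ser-GCT-5-1 mean of 59.8%. The leucine mean was 32.97 and 37.77 points lower in the 2 libraries. With Leu-AAG-2-3 numbered as Leu-TAG-1-1 is, the highest leucine value became that of Leu-TAA-1-1, 47.8%, and the gap widened. With Leu-TAG-1-1 numbered as Leu-AAG-2-3 is, it would be at 44.8%, and the amino acids still did not overlap.

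Over the 74 positions held by both, the summed error of leucine and serine references differed at 50 (67.6%) by limma at an adjusted p of 0.05, 21 higher in leucine (28.4%) and 29 higher in serine (39.2%). This test asks whether the average over these references differs more than it varies between the 2 WT libraries, and does not use the spread among references. By that stricter reading 13 positions (17.6%) had no overlap between the amino acids. Leucine was entirely above serine at 7 (9.46%), namely 8, 9, 10, 11, 25, 35 and 75, and serine entirely above leucine at 6 (8.11%), namely 13, 20a, 31, 37, 42 and 43. With Leu-AAG-2-3 numbered as Leu-TAG-1-1 is, 52 positions passed (70.3%) and 14 had no overlap. The 5 largest differences with leucine higher were at 35 (50.7 points), 11 (30.4), 32 (22.2), 25 (19.3) and 10 (17.3). The 5 largest with serine higher were at 31, 43 (39.3 points), 37, 42 (30.6) and 44 (25.01). These lists follow the sheet. With Leu-TAG-1-1 numbered as Leu-AAG-2-3 is, 32 (10.9 points) and 25 (14.1 points) left the first list and 39 (17.4 points) and 9 (17.2 points) entered it. With Leu-AAG-2-3 numbered as Leu-TAG-1-1 is, the first list held the same positions, and in the second 69 (24.9 points) took the place of 44. By kind, the differences passed at 55 positions in mismatch (74.3%), 61 in deletion (82.4%) and 35 in insertion (47.3%).

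The anticodon stem and the D stem showed these differences in blocks. At 42 the leucine references ran from 2.53% to 25.9% and the serine references from 36.7% upward; at 43 from 6.78% to 36.7% and from 41.6% to 68.4%. At 10, in the D stem, the order was the opposite: 20.0% to 24.5% in leucine and 4.05% to 6.44% in serine references. At 11 leucine references were at 45.6% to 55.1% and serine references at 16.4% to 23.3%. In summed error the 2 amino acids thus diverged at 11 and met again at 12, where mismatch and deletion still separated them.

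Against the 39 other references, the mean of leucine and serine differed at 59 of 74 positions (79.7%), 36 higher (48.6%) and 23 lower (31.1%). After 12 and 26, the largest excesses were at 36 (18.8 points), 31 (18.3) and 14 (13.7). After 20a, the largest deficits were at 46 (17.1 points), 5 (14.3), 51 (13.4) and 9 (13.3). At all of these except 12 the range of the members lay within or across that of the other references, so the averages differ while single references do not separate.

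The variable arm had a similar mean error in the 2 amino acids, but leucine arms were spread more widely. The mean summed error was 39.7% over the 56 leucine and 39.2% over the 44 serine nucleotides, and the medians were 33.5% and 39.3%. Leucine arms held more extremes: 19 of 56 nucleotides exceeded 50%, 8 exceeded 75% and 10 lay under 15%. Leu-AAG-2-3 and Leu-TAG-1-1 peak at the same nucleotides from the 5′ end, and both enter these counts. Nucleotide 49, for example, was at 87.4% and 86.7%. In serine arms 11 of 44 exceeded 50%, 0 exceeded 75% and 5 lay under 15%. By kind, mismatch averaged 22.8% and 23.4%, deletion 14.3% and 12.7%, and insertion 2.55% and 3.13% in leucine and serine arms.

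Among leucine references the arm mean was lowest in Leu-TAA-1-1, 30.3% and 31.4% in the 2 WT libraries, and highest in Leu-TAG-1-1, 47.5% and 48.5%. Serine arm means lay between 36.2% in Ser-TGA-1-1 and 44.6% in Ser-GCT-5-1. In 8 of 9 members the arm was read with more error than the rest of the same molecule in both libraries, by 18.6 and 20.2 points in Leu-TAG-1-1 and by 2.13 and 2.51 points in Ser-TGA-1-1. Leu-TAA-1-1 was the exception, with an arm 4.30 and 2.88 points below the rest.

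The leucine arms each had their own peaks. In Leu-AAG-2-3 the fifth arm nucleotide was at 85.85% and 88.99% and its neighbour, the sixth, at 85.2% and 87.8%. In Leu-TAG-1-1 the fourth was at 86.0% and 87.5% and the fifth at 85.2% and 88.1%, which are the same nucleotides counted from the 5′ end. Leu-CAA-4-1 peaked at the fifth with 79.6% and 80.1%, and Leu-CAG-1-4 at the seventh with 81.4% and 82.8%. Leu-CAG-1-4 was also the reference with a long quiet stretch, arm nucleotides 3 to 6 lying between 6.50% and 11.2%. The lowest arm nucleotides of Leu-AAG-2-3 and Leu-TAG-1-1, at 7.12% and 9.50%, stood directly before their peaks. Leu-TAA-1-1 was flat by comparison, from 12.3% to 50.9%.

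The arms of 3 serine references were near copies of each other. In Ser-AGA-2-5, Ser-CGA-2-1 and Ser-TGA-1-1 the arm began at 41.1% to 48.3%, stood at 52.7% to 62.2% at the fifth nucleotide and at 11.7% to 13.1% at the ninth, and ended at 63.2% to 67.2% at the eleventh. Ser-GCT-5-1 differed: it was highest at the first nucleotide, with 67.1% and 69.9%, at 55.4% at the tenth where the others were at 10.9% to 15.6%, and at 36.9% at the eleventh. The range over references at 1 arm nucleotide had a median of 45.8 points in leucine and 18.8 points in serine, and 5.58 points in serine without Ser-GCT-5-1. Arm nucleotides are matched here by their order, so a shift by 1, as between Leu-AAG-2-3 and Leu-TAG-1-1, enters the leucine range.

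**Figure D4:**
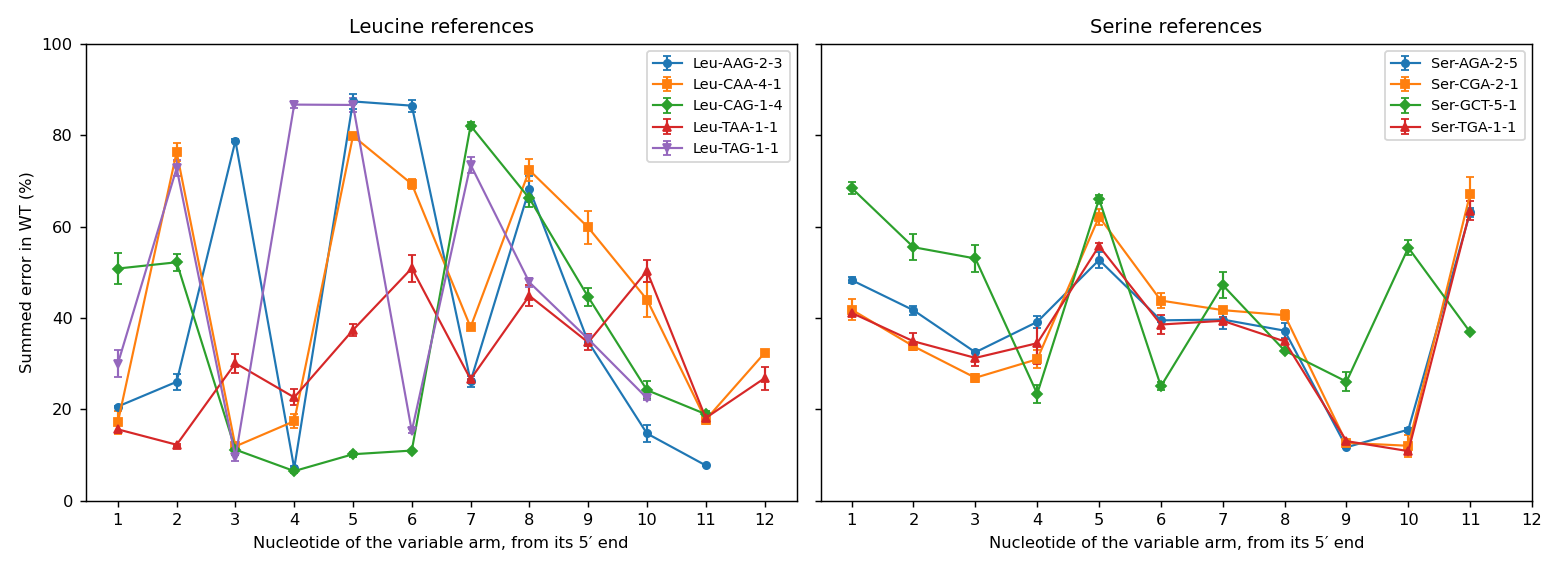
Summed error in WT (y axis, %) along the variable arm (x axis, nucleotide from the 5′ end of the arm) in the leucine (left) and serine (right) references. Points are means of 2 libraries and bars span their 2 values. Ser-AGA-2-5, Ser-CGA-2-1 and Ser-TGA-1-1 follow one course with a last nucleotide at 63.2% to 67.2%, Ser-GCT-5-1 departs from it, and the leucine references reach up to 87.4% at different nucleotides.

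The comparison of TRMT1L KO with WT asks whether loss of TRMT1L changed the error at any of these sites. It found none that passed. Of 769 nucleotides, 0 passed limma at an adjusted p of 0.05 in summed error, where 0.591% of all 3721 tRNA nucleotides did. The same count was 0 in mismatch (0.511% of all), 0 in deletion (1.16% of all) and 0 in insertion (0.107% of all). At an unadjusted p under 0.05 limma gave 13 nucleotides in summed error (1.69%, against 9.19% of all), 14 in mismatch (1.82%, against 6.83%), 26 in deletion (3.38%, against 11.2%) and 43 in insertion (5.59%, against 5.64%). For 1 site alone, 2 against 2 libraries cannot give a two-sided exact permutation p below 0.333.

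The KO minus WT difference in summed error ran from -4.08 to 5.37 points over the leucine and serine nucleotides, with a median of 0.41. In the other references it ran from -48.3 to 18.1 points, with a median of 0.92. The 2 KO libraries were both above the 2 WT libraries at 140 of 769 nucleotides (18.2%, against 30.4% of all) and both below at 64 (8.32%, against 7.95% of all). By kind, both KO libraries were above WT at 122 nucleotides in mismatch (15.9%, against 24.9% of all), 154 in deletion (20%, against 35% of all) and 135 in insertion (17.6%, against 16% of all). They were both below at 83 in mismatch (10.8%, against 10.9%), 73 in deletion (9.49%, against 7.07%) and 107 in insertion (13.9%, against 17.2%). The largest differences in members were thus far smaller than the largest elsewhere in the same libraries.

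**Figure D5:**
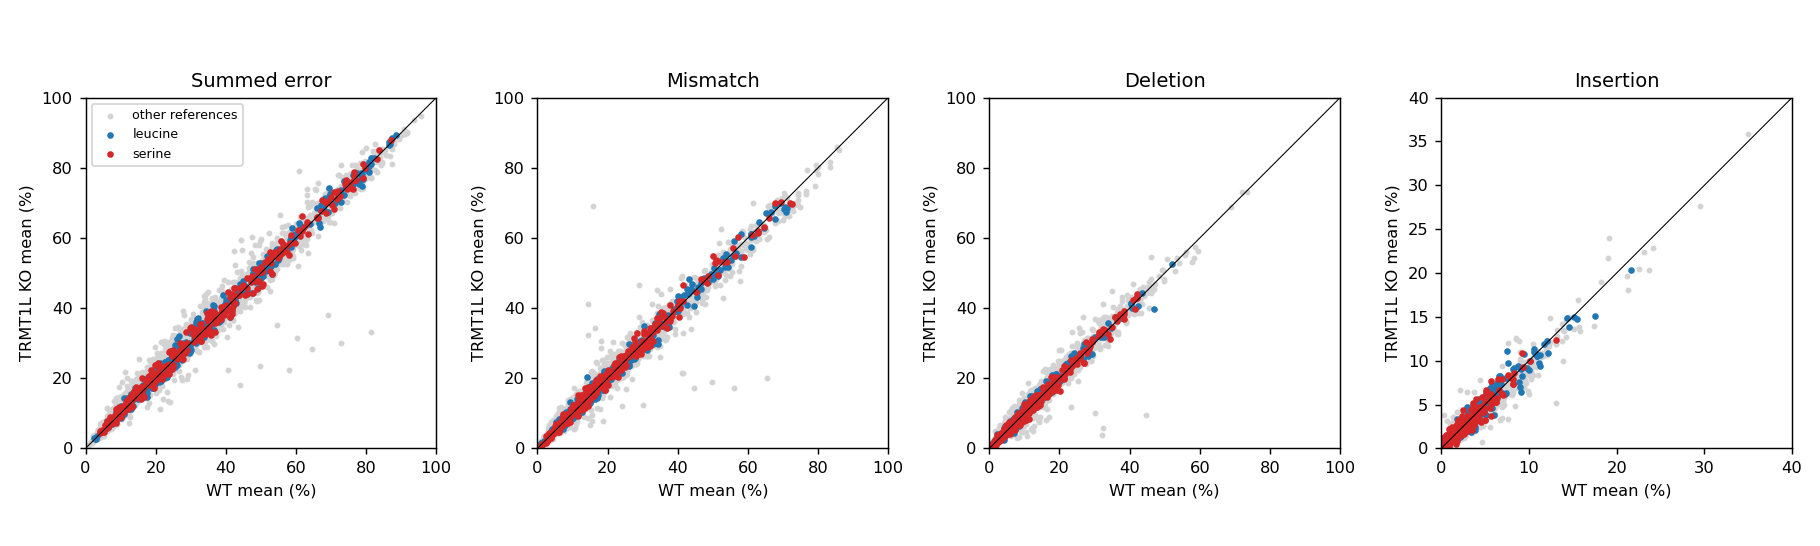
Mean rate in TRMT1L KO (y axis, %) against WT (x axis, %), 2 libraries each, for summed error, mismatch, deletion and insertion, 1 point per tRNA nucleotide. Leucine (blue) and serine (red) nucleotides lie along the line of equality, with summed differences from -4.08 to 5.37 points, while some nucleotides of other references (grey) lie far from it, down to -48.3 points. The insertion axes end at 40%.

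At the sites of known modification the KO and WT means lay within a few points of each other, and none of these differences passed. At 12 the difference in summed error ran from -1.49 to 2.34 points. At 26 it ran from -1.41 to 1.38 points, and Ser-TGA-1-1, for example, read 83.2% and 86.9% in KO against 83.4% and 83.9% in WT. The kinds of error ranged more widely at 26 than their sum, from -3.30 to 3.24 points in mismatch and from -2.60 to 2.00 in deletion. At 27, the position the study's title names for tyrosine tRNA, the members read 23.1% to 59.4% in WT and differed by -2.74 to 2.12 points. The 95% intervals of limma on untransformed summed error had a median half-width of 3.86 points at 26 and 4.66 points at 27. Over the 9 references, their outermost limits were -6.14 and 5.73 points at 26 and -7.36 and 6.67 points at 27.

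The other loop positions gave similar ranges. Differences in summed error were between -2.69 and 0.57 points at 20a and between -1.88 and 0.74 at 20b. At 32 they were between -2.36 and 1.12, where mismatch alone ran from -4.02 to 1.27. In summed error they were between -0.41 and 2.19 at 34 and between -1.39 and 2.12 at 37. At 20 the range was -1.74 to 5.03 points, with the highest in Leu-TAA-1-1.

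In the variable arm, 0 of 100 nucleotides passed in summed error, mismatch, deletion or insertion, where 0.591%, 0.511%, 1.16% and 0.107% of all tRNA nucleotides did. At an unadjusted p under 0.05 limma gave 3, 1, 3 and 5 of the 100, where 9.19%, 6.83%, 11.2% and 5.64% of all did. Differences in summed error ran from -4.08 to 5.06 points. The 2 extremes were neighbours in Leu-AAG-2-3. Arm nucleotide 2 read 24.3% and 27.8% in WT and 32.3% and 30.0% in KO (limma adjusted p = 0.502). Arm nucleotide 3 read 79.1% and 78.5% in WT and 74.1% and 75.3% in KO (limma adjusted p = 0.503). The libraries do not overlap at either, and neither passed.

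The other largest differences without overlap in summed error were also short of the threshold. Leu-TAA-1-1 at position 53 read 24.4% and 28.9% in WT and 30.7% and 33.4% in KO. Leu-TAG-1-1 at 49 read 33.8% and 30.4% in WT and 36.6% and 37.98% in KO. On the lower side, Ser-GCT-5-1 at 46 read 48.2% and 52.6% in WT against 46.3% and 46.5% in KO, and Leu-TAA-1-1 at 14 read 69.04% and 64.7% against 63.7% and 62.5%. In each, the nearest WT and KO libraries were closer together than the 2 WT libraries, and the limma adjusted p lay between 0.504 and 0.671.

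By kind of error, the largest differences were in Leu-TAA-1-1, the member with the widest library spread. Mismatch at its position 13 was 12.1% and 16.2% in WT and 21.3% and 19.6% in KO (limma adjusted p = 0.218). Deletion at its position 14 was 50.9% and 42.9% in WT and 39.8% in both KO libraries (limma adjusted p = 0.294). The site nearest to the threshold was deletion at 19 of the same reference, 1.74% and 2.39% in WT and 3.60% and 4.38% in KO (limma adjusted p = 0.0626). Neighbouring positions of 1 reference thus held the highest mismatch and the lowest deletion difference, and none passed.

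The next mismatch differences were 5.23 points in Ser-GCT-5-1 and 4.73 points in Ser-AGA-2-5, both at 57 in the T loop, and on the lower side -4.63 points in Leu-TAA-1-1 at 22, -4.18 in Ser-CGA-2-1 at 58 and -3.62 in Leu-AAG-2-3 at the third arm nucleotide. In deletion, Leu-CAA-4-1 had the 3 highest, 3.29 points at 59, 3.17 at 58 and 3.10 at 49, and Ser-TGA-1-1 had -3.70 points at the first arm nucleotide and -2.82 at 44. In insertion, the highest were 3.66 points in Leu-TAA-1-1 and 2.14 in Leu-CAG-1-4, both at 20, and 2.07 in Ser-GCT-5-1 at 49. The lowest in insertion were -2.58 points in Leu-CAA-4-1 at 54, -2.38 in Leu-CAG-1-4 at 16 and -2.25 in Leu-CAA-4-1 at 57. None of these passed.

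Mismatch and deletion can move in opposite directions and cancel in the sum. Both KO libraries were above WT in mismatch and below it in deletion at 15 of 769 nucleotides (1.95%, against 1.50% of all tRNA nucleotides), and the reverse held at 20 (2.60%, against 3.79%). These shares are near those of the whole table.

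Leucine and serine did not pass a test of a difference in their response. In the interaction of amino acid and genotype, limma gave 0 of 74 positions at an adjusted p of 0.05 and 0 at an unadjusted p under 0.05.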

How the data were processed

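Nano-tRNAseq reads of tRNA from HCT116 cells, 2 WT and 2 TRMT1L KO libraries, were analysed from 12 deposited sheets. Each holds the fraction of read bases in mismatch, deletion or insertion, per the file headers, by nucleotide for 48 references. A further sheet gives position numbers. BWA, SAMtools and bedtools are named, per the submitters' processing notes; the sources used here do not give versions, base caller, build, depth or the treatment of reads that match several references. Similar references may share reads.

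The 3 rates were added to a summed error. Arcsine square roots of all 3721 tRNA nucleotides were fitted with limma 3.58.1 in R 4.3.3 (trend and robust settings), genotype as the only term, Benjamini-Hochberg adjusted over all nucleotides, threshold 0.05, each kind of error apart. Leucine minus serine, and both minus the other references, were tested as differences within each WT library at 74 shared positions, and their change with genotype as an interaction. No filter on low rates was used. The code was tested on simulated data.

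Members, positions and lists were chosen with earlier results of these data known. In WT the text names the listed positions and the arm. For KO it names sites past the threshold or, with none, the 3 largest differences without overlap in each direction and kind. For WT contrasts it names the 5 largest each way; position 31 and position 27 are given more detail, chosen after their values were seen. The correlation of same-numbered replicates was negative (-0.249 in summed error, -0.378 over the leucine and serine nucleotides), so equal numbers were not taken as pairs. Replicates of unlike number thus tended to deviate together, and the main fit has no term for this. With a block of crossed numbers 69 of all 3721 nucleotides passed in summed error, against 22 without it, and 0 of the leucine and serine nucleotides. The cause was not tested.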

Additional observations from a re-analysis of the deposited data

How the results depend on the processing

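The count of leucine and serine nucleotides called in KO against WT was 0 in summed error under each of 14 alternatives run. These covered the transformation, trend, robust setting, a filter at a mean rate of 0.05, median centring, tRNA ends, insertions, replicate blocks and each library left out. In deletion 1 site, Leu-TAA-1-1 at 19, passed without the tRNA ends (positions 1 to 3 and 70 to 76), where 53 of 3241 nucleotides did. Leaving out a library gave 0 to 5 sites in deletion and 0 to 2 in insertion, the highest without WT replicate 2, where 4 of the 7 sites were in Leu-TAA-1-1 (14, 19 and 34 in deletion, 26 in insertion). That setting called 51 of 3721 tRNA nucleotides in deletion and 5 in insertion. Without WT replicate 1 deletion gave 1 and without TRMT1L KO replicate 1 it gave 2, where 34 and 37 of all were called. A lone library of a genotype is assumed there to vary like the other genotype. With the replicate number as a block, deletion gave 1 site, again Leu-TAA-1-1 at 19 (57 of all 3721), and the block changed no other count from 0; a block with the numbers crossed, added after seeing the data, gave 1 site in mismatch (55 of all) and 6 in insertion (25 of all). The interaction gave 0 to 1 positions (position 3 without WT replicate 2). The causes were not tested.

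The positions that differed between leucine and serine numbered 35 to 61 over the alternatives, against 50. The 35 came from insertion alone and the 61 from deletion alone, while alternatives on the summed error gave 41 to 59. For both against the other references, the positions that differed numbered 54 to 65, against 59. The 54 came from insertion alone, and alternatives on the summed error gave 59 to 65. Both ways of matching the numbering of Leu-AAG-2-3 and Leu-TAG-1-1, added after seeing the data, are included. With 2 libraries a genotype and no depth given, the median half-width of a 95% interval in the arm was 4.64 points.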

Other observations

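At 3 positions of the T loop the leucine and serine references lay close together. At 54, the known ribothymidine site, summed error in WT was 50.4% to 59.01% in leucine and 52.5% to 56.1% in serine references. At 55, the pseudouridine next to it, it was 76.1% to 79.2% and 71.6% to 79.1%. At 58, the known methyladenosine site, it was 69.8% to 81.3% and 70.8% to 77.03%. At these positions the ranges of the amino acids overlapped. The averages still differed at 55 by 2.98 points (limma adjusted p = 0.0063) and at 58 by 3.53 points (limma adjusted p = 0.00076), both higher in leucine. The difference at 54 did not pass (limma adjusted p = 0.957). Other positions of the T arm varied more, such as 49, from 9.46% to 46.01% in serine references, and 60, from 19.04% to 43.1% in leucine references.

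Matched by the sheet's positions and without the arm, the members most alike in WT were Ser-CGA-2-1 and Ser-TGA-1-1. Their mean absolute difference was 4.78 points over 74 positions. Leu-AAG-2-3 and Leu-TAG-1-1 came next with 6.53 points, which includes their shift in numbering. By nucleotide count these leucine references were closer, 3.27 points apart over nucleotides 21 to 45 and 1.12 points over the 50 numbered alike. The median over the 16 pairs within an amino acid was 9.31 points, and over the 20 pairs of a leucine with a serine reference 13.8 points, with ranges of 4.78 to 13.01 and 9.50 to 16.4. Pairs share references and libraries and are given as a description.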
